A study of Mus musculus with 4 samples.

Results

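The thioredoxin, glutathione and antioxidant enzyme genes are 35 mouse genes, chosen by name for their part in the removal of superoxide and peroxides and in the repair of oxidised protein thiols, or in the control of these. They were 35 of 50600 gene rows in each deposited table, and 31 of them were among the 12464 genes that passed a filter on low counts. The RNA came from primary mouse cells with the label T-helper 17 (Th17), a class of CD4 T cells that makes interleukin 17, of strain C57BL/6NJ. There were 4 libraries, numbered as biological replicates 1 to 4, in 1 group with no control, no genotype change and no treatment given in the labels. Each library has its own biosample record and all share 1 donor record. The sex was not collected and the age and stage are unknown. The labels link to a differentiation protocol for CD4 T cells, while each table's header names its alignment with hour 0. The assay is labelled total RNA-seq, but the title of the linked library protocol names poly(A)+ RNA. Nothing says whether the replicates came from separate cultures or animals, so p-values here measure only the spread between these samples, which may be technical.

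The libraries held 29041979, 35018552, 48808978 and 45490373 counted fragments in replicates 1 to 4. Levels are given as TPM, a measure of transcript abundance that divides each gene's counts by its length and scales the library to a fixed total. The label was checked against markers. All 8 T cell markers reached 1 TPM in every library, with a summed level of 10122 to 10474 TPM. Of 8 Th17 markers 3 did, with a summed level of 14.7 to 26.3 TPM, while all 8 markers of naive T cells did, with a summed level of 7143 to 7968 TPM. The label Th17 is therefore used here only as a label. Markers of other cell types were uneven. No marker of B cells, dendritic cells, granulocytes or erythroid cells reached 1 TPM in every library, and their summed levels were at most 3.78 TPM. Of 10 macrophage and monocyte markers 2 did, Cd68 and Itgam, with a summed level of 10.7 to 16.5 TPM and with Cd14 and Fcgr1 at 0 counts. Of 8 CD8 and NK cell markers 3 did, Prf1 at 65.1 ± 7.28, Cd8b1 at 42.9 ± 2.88 and Eomes at 3.07 ± 0.792 TPM, whereas Cd8a was at 0.150 ± 0.0772 TPM. The summed level of this list, 109 to 120 TPM, was above that of the Th17 markers in every library. Of 8 stroma markers 2 did, Vim and Pecam1, which T cells also express, with a summed level of 366 to 399 TPM. The part of such cells in the levels given here was not tested.

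Aerobic metabolism, oxidases and the folding of secreted proteins produce superoxide and hydrogen peroxide. Superoxide dismutases turn superoxide into hydrogen peroxide, which catalase, the peroxiredoxins and the glutathione peroxidases then reduce. Peroxiredoxins are recharged by thioredoxin and thioredoxin reductase, glutathione peroxidases by glutathione and glutathione reductase, and both reductases draw their electrons from NADPH. The transcription factor NRF2, held in check by KEAP1, drives many of these genes under oxidative or electrophilic stress. In activated and differentiating T cells, the glutathione and thioredoxin systems are known to support proliferation.

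Sequence of 2 kinds helps to read these genes, and the first kind is a codon. Selenocysteine is an amino acid inserted at a UGA codon that elsewhere ends translation, and in a selenoprotein enzyme it sits in the active site. The coding sequences of the 35 genes (principal transcript of GENCODE M21, mm10) were read in frame, and 5 of them held a TGA before the last codon. These were Gpx1 at codon 47 (chr9:108339451-108339453), Gpx4 at codon 73 (chr10:80054737-80054739), Txnrd1 at codon 498 (chr10:82896037-82896039), Txnrd2 at codon 526 (chr16:18477772-18477774) and Txnrd3 at codon 614 (chr6:89674789-89674791), all on the plus strand. Capitals mark the TGA, after 24 bases of coding sequence. In the thioredoxin reductases it is the last codon but 1, so that their stretch ends with the coding sequence.
Gpx1: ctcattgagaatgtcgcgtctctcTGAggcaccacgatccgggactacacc
Gpx4: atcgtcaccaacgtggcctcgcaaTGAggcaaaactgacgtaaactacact
Txnrd1: ggagacatcctccagtctggctgcTGAggt
Txnrd2: ctggagcctactgtgactggttgcTGAggc
Txnrd3: ctggacattactcagaaaggctgcTGAggc

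All 3 thioredoxin reductase genes thus hold such a codon, and so do Gpx1 and Gpx4 among the glutathione peroxidase genes. No in-frame TGA was found in Gpx7 or Gpx8, which use cysteine in its place.

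The second kind is a promoter stretch. Txnip encodes a thioredoxin-binding protein whose gene is known to respond to glucose through the factors MondoA and ChREBP, which bind paired E-box-like carbohydrate response elements. A pair of CACGNG copies with 5 bases between them was searched on both strands in RefSeq promoters (GRCm38.p6, 250 bases before to 50 after a transcript's start), which were found for 31 of the 35 genes. It was present in 15 of 27025 genes, or 0.0555%, and Txnip was the only member among them. The match lies on the plus strand, 68 bases before the start. Txnip held no match to the NRF2 motif given further on. Capitals mark the pair in the stretch chr3:96557822-96557938. A match is a run of letters and shows no binding.
Txnip: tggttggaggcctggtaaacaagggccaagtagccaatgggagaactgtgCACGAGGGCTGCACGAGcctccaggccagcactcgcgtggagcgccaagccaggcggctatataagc

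Most of these genes were expressed. In every library 31 of the 35, or 88.6%, reached 1 TPM, as against 45.6% of the 21751 nuclear protein-coding genes measured. Their median level was 48.6 TPM, that of G6pdx. The median was 0.355 TPM over all nuclear protein-coding genes and 34.2 TPM over the 9926 that reached 1 TPM in every library. The 4 genes below 1 TPM in at least 1 library were Nqo1, Gpx7, Srxn1 and Gpx8. In bulk RNA, fewer cells that express a gene and less RNA per cell cannot be told apart. Gene lengths here are the union of all annotated exons, which can be longer than the transcript in use. Taking the length of the principal transcript instead raised Gss, Glrx3, Glrx2 and Txnrd2 by more than 1.5-fold, to 13.1, 50.9, 18.6 and 18.6 TPM, and left 30 genes at 1 TPM in every library. The principal length was capped at the union length, which was the shorter for Glrx5, Sod2, Gstp1 and Gpx8. For those genes the union length was thus used in both settings. Beside the genes named further on, Prdx1, Prdx2 and G6pdx share 10.9%, 9.65% and 7.65% of their 50-base stretches with other loci. Their counts, from which fragments that map to several places were left out, may be somewhat low. On the strand counted, 3.88% of the exon bases of Gclm overlap Gm6061.

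**Figure D1:**
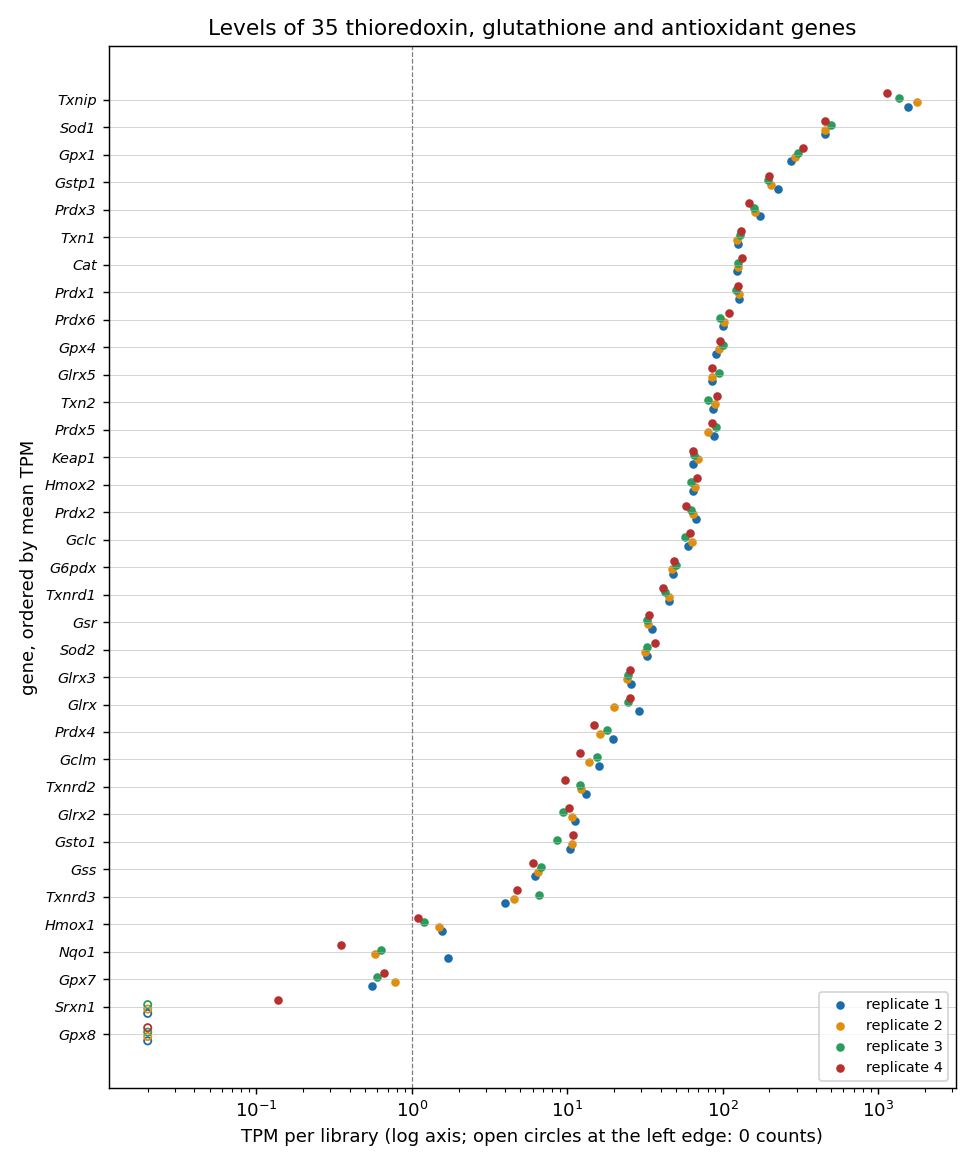
TPM of each of the 35 genes in each of the 4 libraries (points, coloured by replicate), on a log axis, with the genes ordered by mean TPM and a dashed line at 1 TPM. Txnip lies above all other members in every library, from 1135 to 1784 TPM, and Srxn1 and Gpx8 lie at the lower end, where open circles at the left edge stand for 0 counts.

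Txnip, the inhibitor of the thioredoxin system, was the most abundant member. The TXNIP protein binds reduced thioredoxin and also limits glucose uptake. Txnip (ENSMUSG00000038393, mm10 chromosome 3, 96557957 to 96561883, plus strand) had 1560.3, 1784, 1359 and 1135 TPM in replicates 1 to 4. It was highest in replicate 2 and lowest in replicate 4, and its mean of 1459.6 ± 277 TPM (SD, n = 4) was at percentile 99.7 of the nuclear protein-coding genes. Txnip made up 36.5% ± 4.61 of the summed TPM of all 35 genes, with a range of 30.9% to 41.7%. Its target Txn1 encodes cytosolic thioredoxin, and Txnip exceeded it 8.65 to 14.3-fold in the 4 libraries.

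The 2 thioredoxins were close to each other. Txn1 was at 126, 125, 129 and 131 TPM, a spread of 2.26% (coefficient of variation, the SD over the mean). Mitochondrial thioredoxin, Txn2, was at 87.4, 89.6, 80.4 and 92.5 TPM. The libraries did not overlap between the genes, and the log2 ratio of Txn1 over Txn2 was 0.55 ± 0.09 (SD, n = 4). That order depends on gene length: with the principal transcript length the ratio was -0.49, so these data do not place either above the other.

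The reductases that recharge thioredoxin differed by compartment. Cytosolic Txnrd1 was at 45.03, 45.2, 42.4 and 41.2 TPM, and mitochondrial Txnrd2 at 13.2, 12.2, 12.1 and 9.70 TPM. Txnrd1 was 3.41 to 4.25-fold higher within a library, and was still higher with the principal transcript length (log2 ratio 1.77). Txnrd3 encodes a thioredoxin and glutathione reductase best known from testis. It was at 3.98, 4.54, 6.57 and 4.75 TPM, the least of the 3, and was highest in replicate 3. Of the summed reductase level, Txnrd1 held 72.2% ± 1.96, Txnrd2 19.5% ± 1.57 and Txnrd3 8.26% ± 1.89.

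Peroxiredoxins, the thiol peroxidases that thioredoxin recharges, were all expressed, with a summed level of 556 ± 14.7 TPM. Mitochondrial Prdx3 was at 174, 161, 160.0 and 149 TPM, or 28.9% ± 1.14 of the sum, the highest of the family with the union exon length. With the principal transcript length it was not, at 109.6 TPM, below Prdx6 at 140.1 and Prdx1 at 114 TPM. Cytosolic Prdx1 was at 127, 128, 123 and 126 TPM, and its spread of 1.88% was the smallest of the 31 genes tested. Prdx2, the other main cytosolic form and best known from red blood cells, was at 67.4, 64.1, 62.5 and 57.8 TPM. Prdx1 exceeded Prdx2 in all 4 libraries by a log2 ratio of 1.00 ± 0.09, or 0.39 with the principal transcript length. Erythroid markers summed to at most 0.461 TPM, with Hba-a1, Hba-a2, Hbb-bt and Alas2 at 0 counts.

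Prdx5 and Prdx6 complete the more abundant forms. Prdx5, found in mitochondria, peroxisomes and cytosol, was at 88.6, 80.1, 90.5 and 85.9 TPM, below Prdx3 by 1.73 to 2.01-fold in every library, although the log2 ratio shrank from -0.90 ± 0.11 to -0.14 with the principal transcript length. Prdx6, which reduces phospholipid peroxides with glutathione, was at 100.3, 102, 96.2 and 109.9 TPM. Prdx4 is the secretory pathway form and was the least abundant, at 19.8, 16.2, 17.97 and 14.99 TPM or 3.10% ± 0.306 of the sum. Prdx6 was 5.07 to 7.33-fold above Prdx4.

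Srxn1 encodes sulfiredoxin, which restores peroxiredoxins that peroxide has overoxidised. It had 0 counts in replicates 1 to 3 and 5 counts, or 0.137 TPM, in replicate 4. A count of 0 allows up to 3 counts, or 0.128, 0.107 and 0.0748 TPM in those libraries, and such limits cover counting error only. Against that limit Prdx1 was at least 997-fold higher in each of the 3. The enzyme's transcript was thus near the limit of detection where its substrates' transcripts were abundant.

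Among the glutathione peroxidases, Gpx1 and Gpx4 held nearly all counted transcripts, and Gpx1 had the higher counted level. Gpx1 (ENSMUSG00000063856, mm10 chromosome 9, 108338903 to 108340343, plus strand) encodes the main soluble glutathione peroxidase and was at 276, 292, 308 and 331 TPM. Gpx4, the enzyme that reduces lipid peroxides in membranes and protects from ferroptosis, was at 90.5, 95.4, 101 and 96.9 TPM. The libraries did not overlap between these genes, and Gpx1 was 3.05 to 3.42-fold higher as counted, with 75.7% ± 1.02 of the summed glutathione peroxidase level. The log2 ratio of Gpx4 over Gpx1 was -1.65 ± 0.08, and -1.23 with the principal transcript length. Gpx4 may be undercounted by an unknown amount, so the size of this gap is uncertain. Of the 50-base stretches of its transcript, 68.9% also occur in other loci, mainly the pseudogene Gpx4-ps2. Fragments that map to several places were left out of the counts.

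The endoplasmic reticulum forms were scarce. Gpx7 was at 0.559, 0.781, 0.600 and 0.660 TPM, with 38 counts over the 4 libraries. Gpx8 had 0 counts in all 4, which allows up to 0.354, 0.297, 0.208 and 0.228 TPM. The counted level of Gpx7 was above that limit by 1.58-fold in the library with the smallest gap and 2.89-fold in that with the largest. Gpx7 itself rested on 6, 10, 11 and 11 counts in replicates 1 to 4. These folds leave out its counting error, so they set no lower bound on the difference. The secreted Gpx3 and the epithelial Gpx2, listed with other genes of glutathione metabolism, had 0 counts in every library. The 10 genes of selenoprotein synthesis and other selenoproteins on a list of their own all reached 1 TPM, with a median of 49.6 TPM. Highest were Selenow at 737 ± 19.7, Selenop at 542 ± 33.9 and Selenof at 70.1 ± 2.31 TPM, of which Selenof was at 184 TPM with the principal transcript length.

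The superoxide dismutases differed strongly. Sod1 (ENSMUSG00000022982, mm10 chromosome 16, 90220742 to 90226322, plus strand), the copper and zinc enzyme of the cytosol, was the second most abundant member, at 456, 459, 497 and 458 TPM. Sod2, the manganese enzyme of mitochondria, was at 32.8, 31.5, 32.6 and 36.6 TPM. Sod1 was 12.5 to 15.3-fold higher, and the log2 ratio of 3.81 ± 0.12 was 3.82 with the principal transcript length. Sod1 shares 23.1% of its 50-base stretches with a pseudogene, Gm8566, so its own level may be underestimated. The extracellular Sod3 had 0 counts, and Ccs, the copper chaperone of SOD1, was at 135 ± 8.16 TPM. Catalase, the peroxisomal enzyme, was at 123, 126, 125 and 134 TPM for its gene Cat. With the union exon length its 4 libraries overlapped with those of Prdx1 and Txn1. With the principal transcript length Cat was at 86.7 ± 2.91, Txn1 at 87.1 ± 1.91 and Prdx1 at 114 ± 2.09 TPM.

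By compartment, the mitochondrial Prdx3, Txn2, Txnrd2 and Sod2 summed to 294 ± 9.93 TPM, and the cytosolic Prdx1, Prdx2, Txn1, Txnrd1 and Sod1 to 828 ± 17.6 TPM (SD, n = 4). These sets, of 4 and 5 genes, were chosen after the values were seen. They leave out other members of both compartments, such as Glrx5 and Glrx. Sod1 alone, at 467 TPM, was the largest term of the cytosolic sum. The sums use the union exon length alone, and a difference between the compartments as such was not tested. Sources of superoxide and peroxide were uneven. Of 12 such genes 6 passed 1 TPM in each library, with Rac2 at 1339 ± 9.41, Cyba at 388 ± 6.65 and Ncf4 at 81.1 ± 3.46 TPM. Cybb, the catalytic subunit of the phagocyte NADPH oxidase, was at 0.0495 ± 0.0417 TPM.

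Glutathione is made in 2 steps, the first by glutamate-cysteine ligase, a dimer of the catalytic GCLC and the modifier GCLM, and the second by glutathione synthetase. Gclc was at 59.96, 63.9, 56.99 and 61.3 TPM. Gclm was lower, at 16.1, 13.8, 15.7 and 12.1 TPM, and the catalytic subunit gene exceeded it 3.64 to 5.07-fold (log2 ratio 2.07 ± 0.24). Gss, the synthetase gene, was at 6.17, 6.50, 6.74 and 6.07 TPM. Glutathione reductase, Gsr, was at 35.3, 33.3, 32.5 and 33.5 TPM. Gsr exceeded Gss by a log2 ratio of 2.38 ± 0.11, which was 0.85 with the principal transcript length, since the union of Gss exons is 3.01 times as long as its principal transcript. The cystine transporter gene Slc7a11, which supplies cysteine in many stressed cells, was detected in 1 library only, at 0.0111 TPM in replicate 4, while its partner Slc3a2 was at 90.7 ± 2.83 TPM. In all, 10 of 13 other genes of glutathione metabolism reached 1 TPM in every library, among them Esd at 53.6 ± 2.56 and Ggt5 at 52.1 ± 2.96 TPM.

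NADPH for both reductases comes largely from the pentose phosphate pathway. G6pdx encodes its first enzyme, glucose-6-phosphate dehydrogenase, and was at 48.1, 47.2, 50.1 and 49.03 TPM, a spread of 2.54%. All 12 other genes of NADPH supply reached 1 TPM in every library, with a median of 45.1 TPM. Taldo1 was at 187 ± 1.82, Idh2 at 106 ± 10.8 and Nadk at 97.3 ± 2.86 TPM.

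Glutaredoxins reduce mixed disulfides with glutathione or carry iron-sulfur clusters. Mitochondrial Glrx5, an iron-sulfur carrier, was the highest at 84.9, 85.96, 94.9 and 85.9 TPM. Glrx3, its cytosolic and nuclear relative, was at 25.9, 24.3, 24.6 and 25.6 TPM. Glrx, the cytosolic disulfide reductase, was at 29.01, 20.1, 24.6 and 25.2 TPM, and was lowest in replicate 2. Glrx2, the mitochondrial form, was at 11.2, 10.8, 9.37 and 10.2 TPM. The order of these genes depends on length. With the principal transcript length the log2 ratio of Glrx over Glrx2 went from 1.23 ± 0.23 to -0.15, and that of Glrx5 over Glrx3 from 1.80 ± 0.10 to 0.23. Glrx3 also shares 45.4% of its 50-base stretches with the pseudogene Gm12669 and may be undercounted for that reason. The list of other thioredoxin-fold and thiol repair genes had 15 of 16 at 1 TPM in each library, with Ccs, Park7 at 131 ± 3.86 and Sesn1 at 126 ± 7.45 TPM highest. With the principal transcript length Park7 was at 243 TPM and Ccs at 91.9 TPM.

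Glutathione transferases join glutathione to electrophiles. Gstp1, of the pi class, was at 229, 205, 197 and 198 TPM, highest in replicate 1. It is uncertain, because 62.3% of its 50-base stretches also occur elsewhere, mainly in Gstp2. Gsto1, of the omega class, was at 10.4, 10.8, 8.61 and 10.8 TPM. Gstp1 was 18.3 to 22.8-fold higher than Gsto1. The log2 ratio of Gsto1 over Gstp1 was -4.34 ± 0.16, and -3.60 with the principal transcript length. Of 16 other transferase genes 9 reached 1 TPM in every library, among them Gstp3 at 231 ± 22.8, Mgst2 at 69.4 ± 10.3 and Gstt2 at 20.01 ± 3.74 TPM, and Gstm2, Gstm5, Gstm6 and Mgst1 had 0 counts in all 4. Their order depends on length: with the principal transcript length Mgst2 was at 290.1, Gstp3 at 158 and Gstt2 at 41.4 TPM.

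Genes that control NRF2 were well expressed, while several of its inducible targets were low or undetected. Keap1 (ENSMUSG00000003308, mm10 chromosome 9, 21229730 to 21239361, minus strand), whose protein senses electrophiles and marks NRF2 for degradation, was at 64.2, 69.3, 65.4 and 64.8 TPM. The gene of NRF2 itself, Nfe2l2, was at 95.3, 94.1, 95.5 and 94.1 TPM. Of 10 regulators outside the 35 genes, Nfe2l2 among them, 9 passed 1 TPM in each library, with Sqstm1 at 195 ± 9.29 and Cul3 at 145 ± 3.01 TPM. Hmox1, the stress-induced heme oxygenase, was at 1.58, 1.49, 1.21 and 1.105 TPM, with 104 counts in all. Hmox2, its constitutive relative, was at 64.4, 66.2, 62.6 and 68.6 TPM, which was 40.9 to 62.1-fold higher. Nqo1, the quinone reductase often used as a readout of NRF2, had 22, 9, 14 and 7 counts, or 1.70, 0.583, 0.634 and 0.349 TPM. It was highest in replicate 1, and with so few counts a difference between libraries was not testable past the filter.

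Other NRF2 targets, on a list of 15, were split. In every library 9 reached 1 TPM, with Fth1 and Ftl1, the ferritin chains, at 1560.3 ± 71.3 and 759.9 ± 27.4 TPM and Ephx1 at 169.7 ± 7.89 TPM, whereas Me1 and Aox1 had 0 counts in all 4 libraries. The median of this list was 4.45 TPM, as against 58.3 TPM for the 10 regulators outside the 35 genes, Nfe2l2 included. The list holds none of the 35 genes, whose median was 48.6 TPM and many of which NRF2 also drives under stress. The gap between the medians therefore applies to these lists and not to NRF2 targets as a whole.

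**Figure D2:**
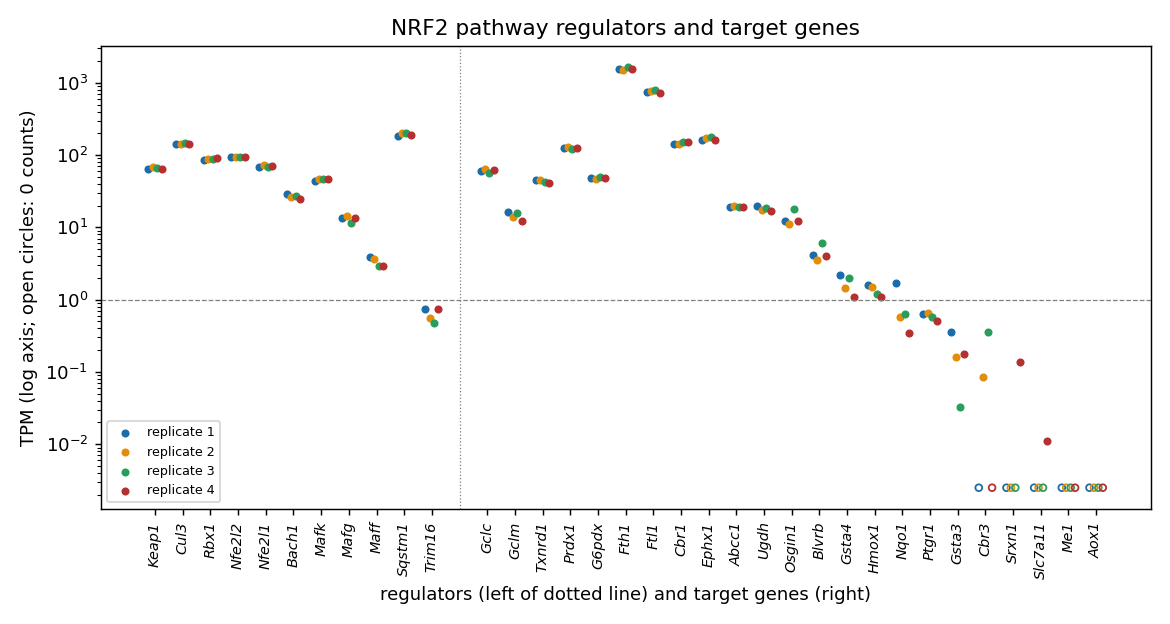
TPM in each library (points, coloured by replicate; log axis; open circles for 0 counts) of regulators of the NRF2 pathway, to the left of the dotted line, and of its target genes, to the right, with a dashed line at 1 TPM. Keap1, Cul3 and Nfe2l2 lie between 64.2 and 149 TPM, while the target genes run from Fth1 at the top to Me1 and Aox1 at 0 counts.

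NRF2 binds the antioxidant response element, whose core reads TGACNNNGC. On either strand of the RefSeq promoters this core was found in 6 of the 31 members with a window, or 19.4%, and in 3781 of 27025 genes, or 13.99%. It is thus common in windows of this length. The 6 were G6pdx, Gclm, Prdx1, Sod1, Srxn1 and Txnrd1. Sequences are shown for the 5 whose match lies before the start, to set them beside their levels. In each the match is on the strand opposite to the gene, so capitals mark its reverse complement on the gene's strand. The stretches are chr4:116685456-116685484 for Prdx1, chr3:122245413-122245441 for Gclm, chr10:82859104-82859132 for Txnrd1, chr16:90220696-90220724 for Sod1, all on the plus strand, and chrX:74428919-74428947 on the minus strand for G6pdx. The bases between match and start number 124, 125, 83, 47 and 48 in this order. As counted, the genes begin at chr10:82833951 for Txnrd1 and chrX:74429194 for G6pdx. The stretches of these genes lie inside those bounds, so the start there is that of a transcript that begins further in.
Prdx1: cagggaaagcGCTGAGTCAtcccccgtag
Gclm: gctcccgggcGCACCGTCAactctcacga
Txnrd1: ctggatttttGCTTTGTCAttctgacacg
Sod1: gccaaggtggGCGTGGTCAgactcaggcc
G6pdx: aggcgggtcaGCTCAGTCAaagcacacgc

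The 6 genes with a match differed widely in level, from Srxn1, at 0 counts in 3 libraries, to Sod1 at 467 ± 19.8 TPM. Nqo1, a well-known NRF2 target, held no match in this window, which says only that these letters are not there.

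Within a library, 16 pairs of isoenzymes, subunits or enzyme and regulator were compared as log2 ratios of TPM with a pseudocount of 0.1. Each pair kept 1 direction in 4 of 4 libraries. A sign-flip permutation test of 4 ratios, exact and two-sided, cannot go below p = 0.125, which all 16 pairs reached (adjusted p = 0.125 over the 16), so no pair could pass 0.05. The largest ratios outside the pairs with counts of 0 were those of Hmox2 over Hmox1 at 5.52 ± 0.25, Gsto1 over Gstp1 at -4.34 ± 0.16 and Sod1 over Sod2 at 3.81 ± 0.12 (SD, n = 4). Txnip over Txn1 followed at 3.49 ± 0.31. This order depends on length: with the principal transcript length Gsto1 over Gstp1 was -3.60. It then came behind Sod1 over Sod2 at 3.82 and Txnip over Txn1 at 3.65. The ratios that kept their direction by the least with the principal transcript length were Prdx5 over Prdx3 and Glrx5 over Glrx3.

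**Figure D3:**
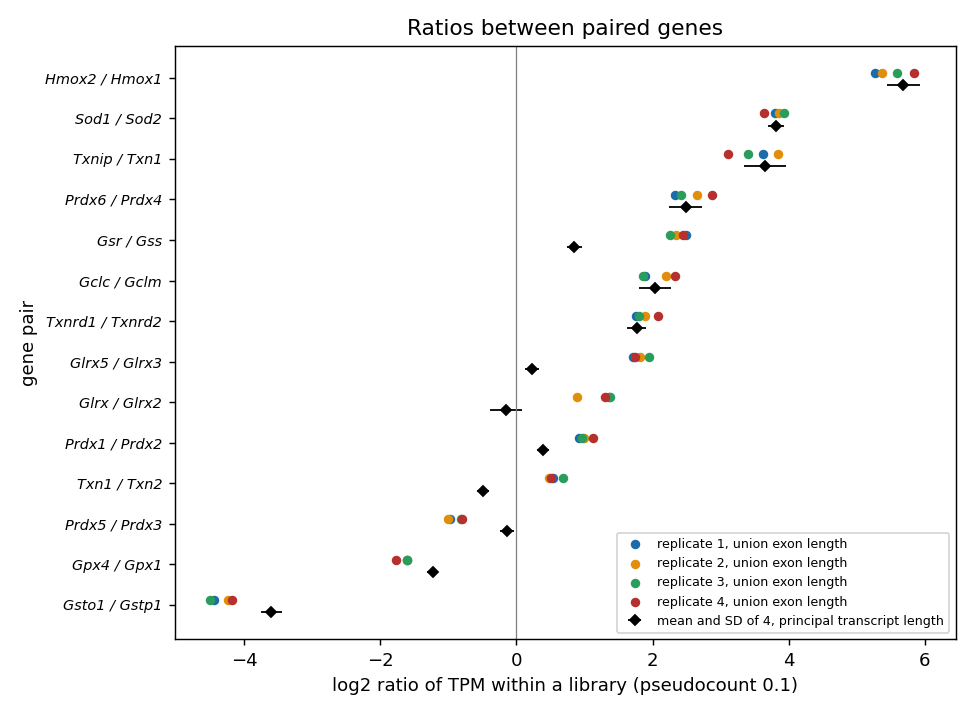
Log2 ratio of TPM within a library for 14 gene pairs (coloured points: each replicate, union exon length; black diamonds with bars: mean and SD of the 4 with the principal transcript length). All coloured points of a pair lie on 1 side of 0, and the diamonds of Txn1 over Txn2 and Glrx over Glrx2 lie on the other side.

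The question left by a single group is how much the members varied between the 4 libraries. Spread was tested with edgeR's quasi-likelihood fit, which asks whether a gene varies more than the trend for genes of its level. Of the 31 members tested 0 were called excess variable at an adjusted p below 0.05, where 0.193% of all 12464 genes were. At an unadjusted p below 0.05 there was 1 member, Txnip, where 5.34% of all genes passed. DESeq2 marked 0 of the 31 as dispersion outliers, where it marked 0.866% of all. Srxn1, Gpx7, Gpx8 and Nqo1 were not tested, being too low. The median ratio of a gene's dispersion to the trend for its level was 0.811 for the tested members and 0.871 over all genes tested. The coefficient of variation and the fold between libraries take no account of level. The median coefficient of variation was 5.62% for the tested members, as against 7.94% over all genes tested. Of the 31, 23 lay below 10%, where 60.3% of all genes did. In 29 of the 31 the highest library was less than 1.5-fold above the lowest, where this held for 80.9% of all genes.

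The exceptions were Txnip at 1.57-fold and Txnrd3 at 1.65-fold. Txnip rested on 202085 counts, so counting alone gives a variation of 0.449%, and its observed variation was 19.0%. Its dispersion was 11.2 times the trend (edgeR unadjusted p = 0.00464, adjusted p = 0.416 over 12464 genes), which does not pass the adjusted threshold. Without the filter on low counts its adjusted p was 0.000248, and it was below 0.05 under no other alternative tried, where it ran from 0.285 to 0.913. The next smallest adjusted p among the members was 0.961, for Gpx1. Txnrd3 had 661 counts in all, and its adjusted p did not pass either.

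**Figure D4:**
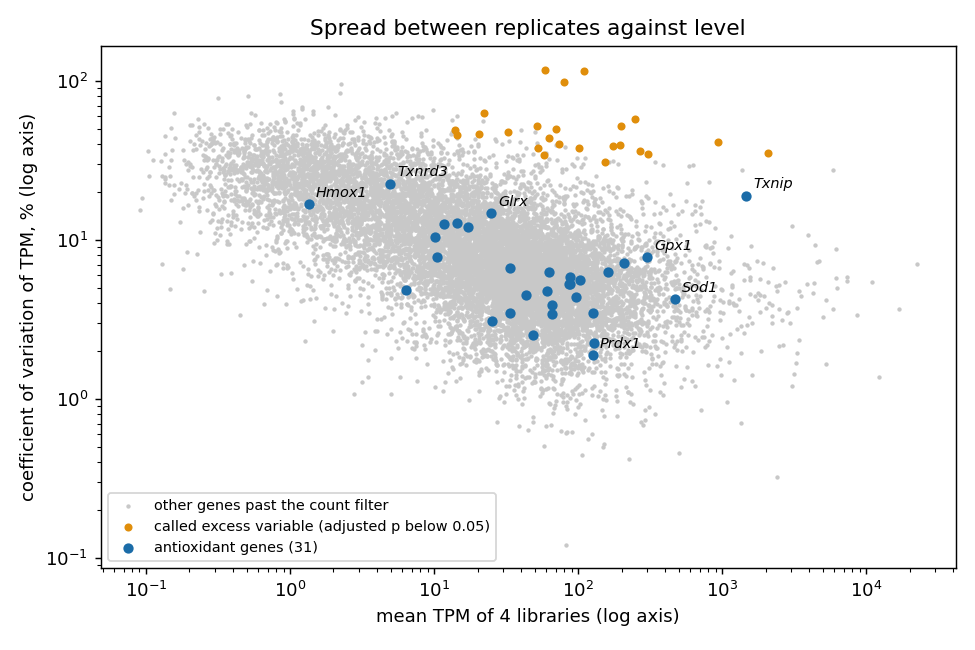
Coefficient of variation of TPM over the 4 libraries against mean TPM (both log axes) for the 12464 genes past the count filter (grey), the 24 called excess variable (orange) and the 31 antioxidant genes tested (blue). The blue points lie within the grey cloud, from 1.88% for Prdx1 to 22.6% for Txnrd3, and Txnip lies below the orange points of similar level.

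No replicate stood apart for the members as a group. Deviations from each gene's mean were taken in log2 CPM, with 1 added to the CPM. CPM here is counts scaled to the library total times its TMM factor, a normalization factor of 0.979 to 1.016. The members' deviations had medians of -0.01, -0.03, 0.01 and 0.01 in replicates 1 to 4. Over all genes past the filter the medians were 0.003, -0.0003, 0.001 and -0.003. The deviations thus compare the members with the typical gene and cannot show a shift shared by most genes. The highest library was replicate 1 for 9 members, replicate 2 for 4, replicate 3 for 8 and replicate 4 for 10, where the shares over all genes were 27.0%, 18.7%, 24.8% and 29.4%. The lowest was replicate 1 for 9, replicate 2 for 7, replicate 3 for 7 and replicate 4 for 8, where the shares were 25.5%, 19.9%, 23.9% and 30.6%. The summed TPM of the 35 genes was 4080.1, 4275, 3895 and 3668 in replicates 1 to 4, the same order of replicates as for Txnip, its largest term.

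Some members did deviate in single libraries. Txnip was at 0.09, 0.29, -0.06 and -0.32 on the log2 scale in replicates 1 to 4, which puts replicate 2 high and replicate 4 low. Txnrd3 was at -0.25, -0.10, 0.37 and -0.02, with replicate 3 high. Gpx1 was at -0.15, -0.06, 0.05 and 0.16, with replicates 3 and 4 above replicates 1 and 2. Gclm was at 0.14, -0.07, 0.15 and -0.22, Txnrd2 at 0.14, 0.04, 0.06 and -0.24 and Prdx4 at 0.17, -0.09, 0.08 and -0.16, each lowest in replicate 4. Glrx, at 0.20, -0.27, 0.02 and 0.05, was lowest in replicate 2. None of these 7 genes passed the adjusted spread test.

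Heat shock genes differed between the same libraries. Of 14 on the list 13 reached 1 TPM, and their summed level was 3056, 3955, 3629 and 6607 TPM in replicates 1 to 4. Their median log2 deviation was -0.50, -0.02, -0.16 and 0.68. Of the 13 tested, edgeR called 8 excess variable, where it called 0.193% of all genes. These were Hsph1, Hsp90aa1, Hsp90ab1, Hspa8, Hspa1b, Dnajb1, Dnaja1 and Chordc1. DESeq2 marked 11 of the 13 as dispersion outliers, where it marked 0.866% of all genes. The list was chosen with earlier results of these data known, so these shares do not test heat shock genes as a group. Replicate 4, highest for these genes, was the library with the lowest Txnip, Gclm, Txnrd2 and Prdx4 and the highest Gpx1. These were picked from the 31 members tested. Of all 31, 8 were lowest and 10 highest in replicate 4, where the shares over all genes were 30.6% and 29.4%. The part of the heat shock genes in the members' deviations was not tested. Across the 8 other lists of the pathway, edgeR called 0 of 84 genes tested, where it called 0.193% of all genes. At an unadjusted edgeR p below 0.05 there were 3, where 5.34% of all genes passed. DESeq2 marked 0 of the 84, where it marked 0.866% of all genes.

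**Figure D5:**
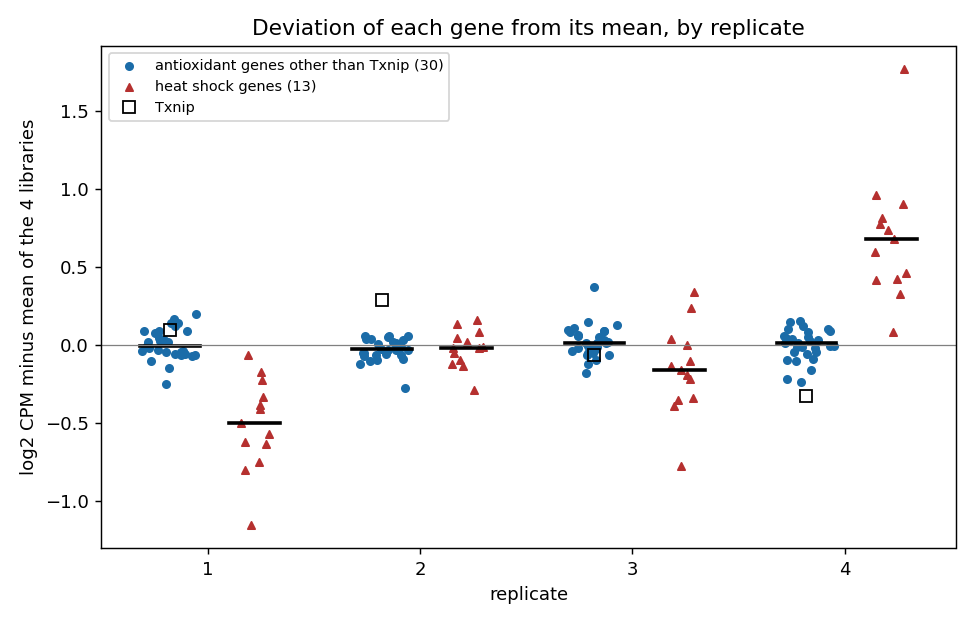
Log2 CPM minus the mean of the 4 libraries, by replicate, with TMM factors applied and 1 added to the CPM. Shown are 30 antioxidant genes (blue circles), Txnip (open square) and 13 heat shock genes (red triangles), with group medians as black bars. The blue medians stay near 0 in every replicate, while the heat shock median runs from -0.50 in replicate 1 to 0.68 in replicate 4 and Txnip lies at -0.32 there.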

How the data were processed

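RNA was measured in 4 libraries of 1 group. The authors deposited raw counts of fragments per gene, 1 table per library. Per the file headers, featureCounts 1.4.6-p4 counted read pairs over GENCODE M13 exons (mm10) on the reverse strand. The command line there sets no option for fragments that map to several places, so genes with near-identical copies may be undercounted. How many fragments were lost in this way was not measured. An aligner is not named in these sources. All rows name a gene ID, and 224 of 50600 IDs had no symbol in GENCODE M21. TPM was computed here from those counts and each gene's union exon length.

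The 35 genes, the 19 other lists, the 16 pairs and the tests were chosen with earlier results of these data known. All 35 genes may be named, and from each other list the 3 of highest mean TPM, any gene called excess variable, and markers. Genes outside this rule (those at 0 counts or in 1 library only, Cybb, and genes that share sequence with members) were named after their values were seen.

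Spread between libraries was tested with edgeR 4.0.16 in R 4.3.3 (intercept-only design, TMM factors, filterByExpr, robust prior) by a one-sided F test of a gene's quasi-dispersion against the trend, with Benjamini-Hochberg adjustment over 12464 genes, and checked on simulated data. DESeq2 1.42.0 was an alternative. Depth was 29041979 to 48808978 counts per library, and a count of 0 was taken to allow up to 3 counts. Pairs were compared by an exact sign-flip permutation test. Shared sequence was the share of 50-base stretches of the principal transcript found in another locus. Promoter sequences are from RefSeq (GRCm38.p6) and coding sequences from GENCODE M21. Other steps used Python 3.11.15 (numpy 2.4.6, pandas 2.3.3, scipy 1.17.1). Alternatives covered length, the genes summed in TPM, filters, normalization, pseudocount, the prior and each library left out.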

Additional observations from a re-analysis of the deposited data

Results flagged for a closer look

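Among 50 sets of 4 values checked, 6 had 1 library far from the other 3. For independent, normally distributed values the cutoff used would flag about 1 in 20. These sets are not independent, since the ratios reuse the values of the genes. With counts of 0 in 3 libraries, any count in the remaining library flags Srxn1. The number flagged is therefore not compared with that rate. Sod1 was at 497 TPM in replicate 3, above 456 to 459 TPM in the others. Glrx5 was at 94.9 TPM in replicate 3, above 84.9 to 86.0 TPM. Srxn1 was at 0.137 TPM in replicate 4 and at 0 counts elsewhere, and the log2 ratio of Prdx1 over Srxn1, which uses that value, was 9.06 there. The log2 ratio of Gpx4 over Gpx1 was -1.77 in replicate 4, where Gpx1 was highest. The log2 ratio of Glrx over Glrx2 was 0.89 in replicate 2, where Glrx was lowest.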

How the results depend on the processing

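No paired analysis was possible because the labels give 1 group only. Gene length had the most effect on levels. With the principal transcript length, chosen as an alternative after seeing the data for levels, the ratio of Txn1 over Txn2 turned to -0.49 and that of Glrx over Glrx2 to -0.15. With no length correction, Txn1 over Txn2 was -1.45, Glrx over Glrx2 -1.46 and Glrx5 over Glrx3 -0.62. The other pairs kept their direction under every alternative run, and leaving out a library gave 3 ratios, whose smallest p is 0.25. The members' median of 48.6 TPM was 55.3 over nuclear protein-coding genes alone, 50.9 with the principal length and 48.1 to 49.1 with a library left out. Members at 1 TPM in every library numbered 30 with the principal length, 32 at 0.5 TPM and 30 at 2 TPM.

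The count of excess variable genes moved widely. It was 24, and became 349 with no filter, 10 at a mean CPM of 5, 5 with a prior that was not robust, 6 for nuclear protein-coding genes alone, 108 by DESeq2, 17 with adjusted deviances, an alternative added after seeing the data, and 7 to 86 with a library left out (30 without replicate 1, 13 without replicate 2, 7 without replicate 3 and 86 without replicate 4). Members called stayed at 0, except for 1, Txnip, with no filter. Depth limits Srxn1, Gpx7, Gpx8 and Nqo1, which had 5, 38, 0 and 52 counts over the 4 libraries and did not pass the main filter on low counts. With no filter 34 members were tested, and 32 without replicate 1.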
